A study of Homo sapiens with 8 samples.

Results

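The transcripts described here are those of the human mitochondrial genome, chosen as every gene whose GENCODE symbol begins with MT-. This rule took 37 of the 60291 genes in the count files, namely 13 mRNAs, 2 rRNAs and 22 tRNAs. They were measured in A549, a human lung adenocarcinoma line in which a loss-of-function mutation of KEAP1 keeps the transcription factor NRF2 (the product of NFE2L2) constitutively active, and every library carries that background. The cells were sequenced as stranded total RNA after rRNA removal with Ribo-Zero Gold, from 250000 cells in each transfection. NFE2L2 siRNA was given in 3 transfections, each with a duplex of its own, and control siRNA in 4 transfections, with each of the 2 control duplexes used 2 times. Every siRNA transfection used 5 nmol of siRNA. One mock transfection (Lipofectamine RNAiMAX alone) had no replicate. All libraries came from the same line, and the labels do not say that transfections were done on separate cultures or days, so p-values measure the spread between these transfections only.

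The mitochondrial genome is a small circle that is transcribed from both strands into long precursor RNAs. The tRNAs stand between most of the mRNAs and rRNAs, and their excision releases the other transcripts. Its mRNAs encode subunits of respiratory complexes I, III and IV and of ATP synthase (complex V), its rRNAs form the core of the mitochondrial ribosome, and all other components, among them the mitochondrial RNA polymerase POLRMT and the packaging factor TFAM, are encoded in the nucleus. NRF2 controls genes of the antioxidant response, and the comparison here asks whether mitochondrial transcripts changed when its mRNA was reduced.

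Gene counts, the reads assigned to genes, ranged from 35525141 to 41645410 per library, and 3 reads, the upper limit that a count of 0 allows, came to between 0.0720 and 0.0844 CPM, where CPM scales the reads of a gene to the gene counts of its library (a counts-per-million value). Intervals and limits of this kind cover counting error only. The knockdown was seen in each library, as NFE2L2 stood at 32.8, 52.9 and 30.3 CPM after NFE2L2 siRNA and at 102.0 to 119.0 CPM in the controls, and its target NQO1, a quinone reductase, fell by 2.19 on the log2 scale (SE 0.13, edgeR adjusted p = 1.94e-05). Epithelial keratins were high, with KRT8 at 4036 to 6422 CPM, but EPCAM was low at 3.60 to 11.05 CPM. All 6 epithelial markers together came to 8595 to 13353 CPM after NFE2L2 siRNA, 8690 to 9106 CPM in the controls and 11017 CPM in the mock library. The 7 markers of other cell types examined summed to 8.77 to 11.7 CPM after NFE2L2 siRNA, 4.90 to 6.70 CPM in the controls and 4.99 CPM in the mock library, most of it CD14, whereas no library held more than 3 reads of PTPRC or CD3E. The part of these differences in the results that follow was not tested.

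Several features of the sequence bear on how reads of this genome are counted, and each is shown with bases of the GRCh37 reference, in which the mitochondrial sequence holds 16569 bases. The first is that neighbouring genes can share bases. The 5′ end of MT-ATP6 lies inside MT-ATP8, and the 46 shared bases are in capitals below, with 10 bases on either side (chrM:8517-8582, plus strand).
MT-ATP8 and MT-ATP6: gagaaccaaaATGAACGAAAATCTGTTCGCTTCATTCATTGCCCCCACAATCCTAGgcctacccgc
MT-ND4L and MT-ND4 share 7 bases and MT-ATP6 and MT-CO3 share 1. The second is that tRNA genes are short, from 59 to 75 bases. MT-TV, the tRNA for valine between both rRNAs (chrM:1602-1670, plus strand), is shown because it had the most tRNA reads, and it was chosen after its values were seen.
MT-TV: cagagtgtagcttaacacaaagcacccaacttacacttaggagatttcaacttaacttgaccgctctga

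The third feature is that the nuclear genome holds old copies of mitochondrial DNA. A block on chromosome 1 (chr1:564461-570304) matched the stretch from inside MT-ND1 to inside MT-CO3 (chrM:3911-9755) with 98.5% identity and 83 mismatches. A block on chromosome 5 (chr5:134258999-134264217) matched chrM:10269-15487 with 94.1% identity. The 60 aligned bases of MT-CO1 and of MT-CO3 that differ most from the chromosome 1 copy are set side by side, with the differing bases in capitals, to show how few bases tell a mitochondrial read from a nuclear one (MT-CO1 chrM:6207-6266 and chr1:566757-566816, MT-CO3 chrM:9489-9548 and chr1:570038-570097, all on the plus strand).
MT-CO1: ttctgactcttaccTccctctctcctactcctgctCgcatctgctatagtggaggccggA
MTCO1P12: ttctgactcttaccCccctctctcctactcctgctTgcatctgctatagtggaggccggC
MT-CO3: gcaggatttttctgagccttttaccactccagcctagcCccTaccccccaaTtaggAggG
MTCO3P12: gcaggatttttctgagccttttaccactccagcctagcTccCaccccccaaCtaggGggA
MT-CO1 differs from this copy at 21 of 1543 aligned positions, and their longest identical run is 245 bases. Reads that aligned at more than 1 place were not assigned to genes.

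The 13 mRNAs took between 0.330% and 0.393% of gene counts in the 8 libraries. They made up 0.381%, 0.337% and 0.393% of gene counts after NFE2L2 siRNA, 0.382% and 0.330% in the pair with control duplex 1, 0.378% and 0.373% in the pair with control duplex 2, and 0.390% in the mock library. The groups overlapped throughout, and the second transfection with control duplex 1 and the NFE2L2 duplex 2 library were the lowest. The means were 0.370% ± 0.030 (SD, n = 3) and 0.366% ± 0.024 (SD, n = 4), and an exact two-sided permutation test over the 35 divisions of the 7 libraries gave p = 0.686, where the smallest p the design allows is 0.0571. The test took the 4 control libraries as exchangeable, although they shared 2 duplexes. Counting error was far smaller than the SDs of the groups. For the control duplex 1 library with the share of 0.382%, the 95% Wilson interval was 0.380% to 0.384%.

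The 2 rRNAs took a larger share after NFE2L2 siRNA on average, but the groups overlapped. They made up 0.237%, 0.201% and 0.273% of gene counts after NFE2L2 siRNA, 0.112% and 0.160% with control duplex 1, 0.176% and 0.215% with control duplex 2, and 0.199% in the mock library. The control libraries spread from the lowest value to one above the NFE2L2 duplex 2 library. The means were 0.237% ± 0.036 (SD, n = 3) and 0.166% ± 0.043 (SD, n = 4), a ratio of 1.43 (exact permutation test, p = 0.114). The mean of control duplex 2 was 1.44 times that of control duplex 1. The repeats of the same duplex also differed, at 0.112% and 0.160% with duplex 1 and 0.176% and 0.215% with duplex 2. With 2 transfections per duplex, a difference between control duplexes cannot be told apart from one between transfections. Since Ribo-Zero Gold removes mitochondrial rRNA, these values are of the rRNA that was left, and unequal removal cannot be told apart from unequal amounts in the cells.

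**Figure D1:**
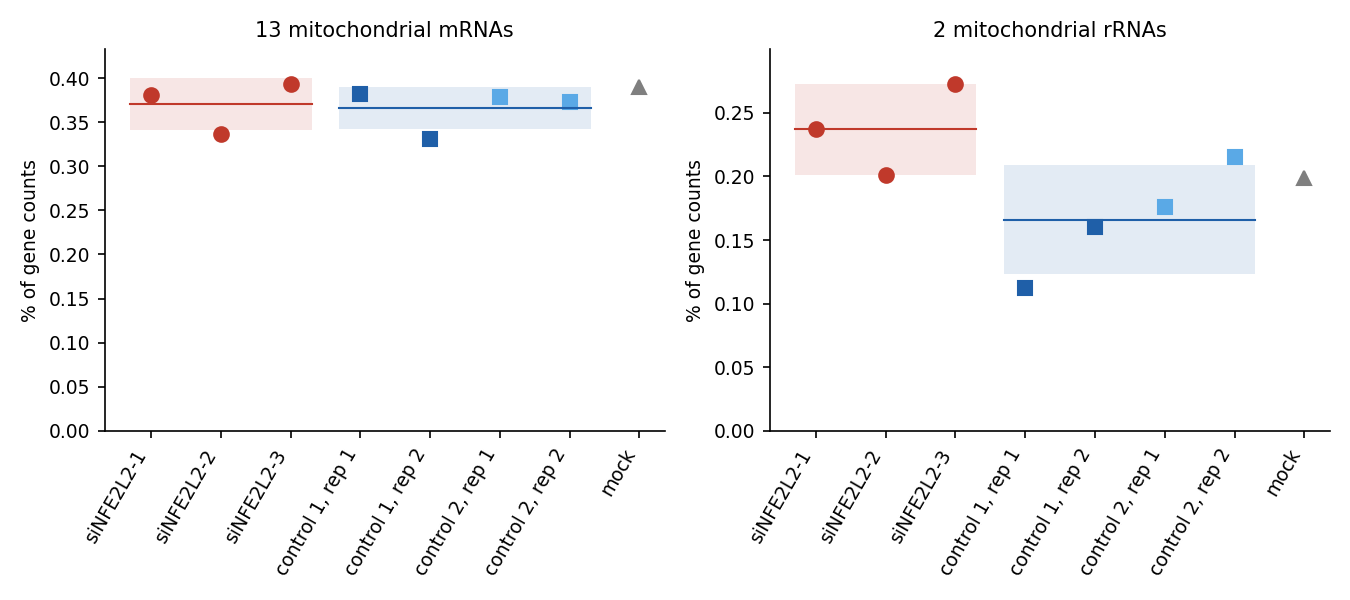
Share of gene counts, in percent, of the 13 mitochondrial mRNAs (left) and the 2 rRNAs (right) in each of 8 libraries, with the mean as a line and 1 SD as a band for NFE2L2 siRNA (n = 3) and control siRNA (n = 4). The mRNA shares lie between 0.330% and 0.393%, whereas the rRNA shares run from 0.112% to 0.273%. The rRNA shares differ between the control duplexes and between repeats of the same duplex.

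Across all genes, 491 of 17811 tested passed the edgeR quasi-likelihood test at an adjusted p of 0.01, or 2.76% of those tested, and none of them was a mitochondrial transcript. The filter of 10 reads in at least 1 library left 15 of the 37 for testing, the 13 mRNAs and 2 rRNAs, of which 0 were called by edgeR, 0 by DESeq2 (which called 7.38% of all genes) and 0 by limma-voom. At an unadjusted p under 0.05, edgeR took 2 of the 15, both rRNAs, beside 25% of all genes. No member had separate groups, where the 3 NFE2L2 siRNA libraries all lay above or all below the 4 controls in TMM-normalized CPM, beside 23.3% of all genes tested. The median log2 fold change of the 13 mRNAs was 0.05 and that of all genes tested was 0.01. For 12 of the 13 mRNAs the 95% interval of the fold change stayed within 1.5-fold in either direction, and the exception was MT-ND6.

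Complex I, the NADH dehydrogenase through which electrons enter the respiratory chain, has 7 mitochondrial subunits. All of their mRNAs but MT-ND6 come from the same strand as nearly all others, and none passed the test. MT-ND1 stood at 36.8 ± 6.3 CPM (SD, n = 3) after NFE2L2 siRNA and 33.1 ± 2.5 CPM (SD, n = 4) in the controls, with a fold change between 0.887 and 1.33 (95% interval). MT-ND2 stood at 27.7 ± 4.5 and 29.3 ± 4.0 CPM, and its fold change lay between 0.732 and 1.17. Of the other complex I mRNAs, MT-ND3 was at 118.1 ± 17.5 and 109.6 ± 9.6 CPM. MT-ND4 was at 74.0 ± 16.2 and 68.0 ± 10.2 CPM, and MT-ND4L, whose gene overlaps it, at 16.5 ± 3.4 and 15.2 ± 1.3 CPM. MT-ND5 had the smallest log2 fold change of all 15, at 0.01 (SE 0.18, edgeR adjusted p = 0.976), and the controls alone ranged 1.57-fold. Within the NFE2L2 siRNA group the duplex 3 library held the highest value of MT-ND1, MT-ND2, MT-ND4, MT-ND4L and MT-ND5. It also held the highest value of every mRNA of the other complexes and of both rRNAs, so this is not particular to complex I.

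MT-ND6 is the complex I subunit encoded on the opposite strand to the other 12 mRNAs (chrM:14149-14673, minus strand), so its RNA comes from light-strand transcription. It had 540, 556 and 621 reads after NFE2L2 siRNA, which were 15.02, 14.4 and 14.9 CPM. The controls had 25.6 and 13.9 CPM with duplex 1 and 22.02 and 14.8 CPM with duplex 2, and the mock library 20.0 CPM. The NFE2L2 siRNA libraries thus lay close together, beside the second transfection of each control duplex and below the first transfection of each and the mock library. The log2 fold change was −0.41 (SE 0.22), and the edgeR adjusted p of 0.276 did not pass. The interval of the fold change ran from 0.540 to 1.05.

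Set against the other 12 mRNAs within each library, which needs no library scaling, MT-ND6 showed the same split. It had 3.96, 4.29 and 3.81 reads per 1000 reads of the others after NFE2L2 siRNA, 6.75 and 4.22 with control duplex 1, 5.85 and 3.98 with control duplex 2, and 5.16 in the mock library. The first transfection with either control duplex was high and the second fell among the NFE2L2 siRNA libraries. The log2 ratio was lower by 0.338 after NFE2L2 siRNA (log2 difference −0.34, exact permutation test, p = 0.229), and by 0.201 without the first transfection of control duplex 1 (log2 difference −0.20). Whether the first and second transfections of the control duplexes were handled together is not in the labels.

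Complex III has a single mitochondrial subunit, cytochrome b. Its mRNA, MT-CYB, stood at 53.1 ± 9.7 CPM (SD, n = 3) after NFE2L2 siRNA and at 47.8 ± 3.5 CPM (SD, n = 4) in the controls, and the fold change lay between 0.893 and 1.32. The mock library had 55.7 CPM, above every control.

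The subunits of complex IV, cytochrome c oxidase, that the mitochondrion encodes form its catalytic core. Their mRNAs had the most reads of the 13. MT-CO1 had 1375, 1194 and 1409 CPM after NFE2L2 siRNA and 1337, 1084, 1331 and 1268 CPM in the controls, with 1318 CPM in the mock library. MT-CO2 had 582.8, 545.6 and 607.6 CPM after NFE2L2 siRNA and 606.8, 577.9, 581.8 and 647.8 CPM in the controls. MT-CO3 had 1396, 1254 and 1406 CPM after NFE2L2 siRNA and 1431, 1278, 1420 and 1382 CPM in the controls. Within the NFE2L2 siRNA group duplex 2 was lowest for each of the 3 genes. The same held for every other mitochondrial mRNA and both rRNAs, so it is not particular to complex IV. Their log2 fold changes were 0.05 (SE 0.11), −0.09 (SE 0.09) and −0.06 (SE 0.09), with edgeR adjusted p of 0.831, 0.545 and 0.731. The 95% intervals of the fold changes ran from 0.873 to 1.22 for MT-CO1, from 0.821 to 1.07 for MT-CO2 and from 0.832 to 1.11 for MT-CO3.

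ATP synthase (complex V) has a pair of mitochondrial subunits in its membrane part, from the overlapping genes shown above. MT-ATP6 stood at 58.9 ± 8.7 CPM (SD, n = 3) and 55.7 ± 6.5 CPM (SD, n = 4), and MT-ATP8 at 8.99 ± 1.19 and 7.95 ± 1.21 CPM, after NFE2L2 siRNA and in the controls. Neither passed the test (edgeR adjusted p = 0.866 for MT-ATP6 and 0.608 for MT-ATP8). By complex, the complex IV mRNAs made up 87.0% to 89.0% of all mitochondrial mRNA reads in the 8 libraries, complex I 8.10% to 9.37%, complex V 1.59% to 1.99% and complex III 1.29% to 1.63%.

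MT-RNR1 (12S, the small-subunit rRNA, chrM:648-1601) and MT-RNR2 (16S, the large-subunit rRNA, chrM:1671-3229) had the largest fold changes of the 15 in the upward direction. MT-RNR1 had 330.5, 289.2 and 400.2 CPM after NFE2L2 siRNA, 127.5 and 198.8 CPM with control duplex 1, 253.2 and 310.1 CPM with control duplex 2, and 286.5 CPM in the mock library. MT-RNR2 had 2039, 1722 and 2327 CPM after NFE2L2 siRNA, 992.6 and 1405 CPM with control duplex 1, 1510 and 1844 CPM with control duplex 2, and 1703 CPM in the mock library. For each, the second transfection with control duplex 2 exceeded the NFE2L2 duplex 2 library, and both libraries of control duplex 1 were lowest. The fold change was 1.504 for MT-RNR1 (log2 0.59, SE 0.24, edgeR adjusted p = 0.156) and 1.39 for MT-RNR2 (log2 0.47, SE 0.17, edgeR adjusted p = 0.128). Neither passed.

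**Figure D2:**
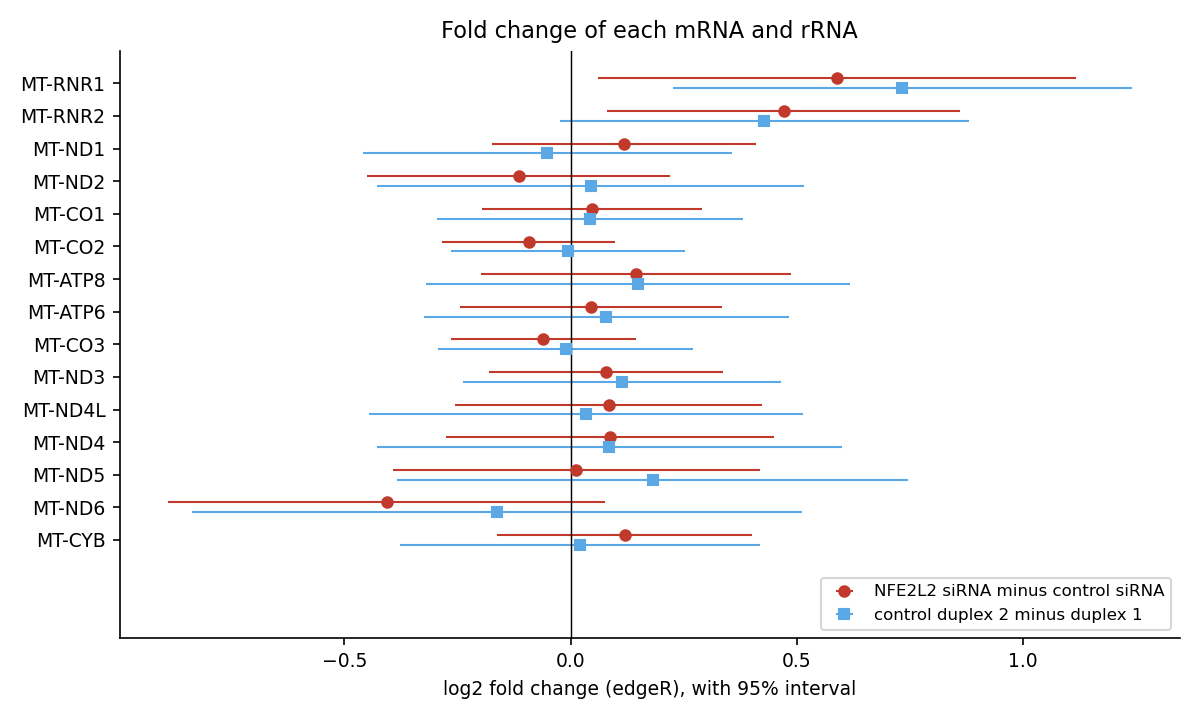
Log2 fold change with its 95% interval for each mRNA and rRNA from edgeR, for NFE2L2 siRNA minus control siRNA (circles) and for control duplex 2 minus duplex 1 (squares). The rRNAs lie furthest right in both comparisons (0.59 and 0.47 against 0.73 and 0.43), and the mRNAs other than MT-ND6 lie within 0.15 of 0 in the first.

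The control duplexes were also compared with each other. Each had 2 transfections, so a difference between duplexes includes the spread between transfections. With duplex 2 against duplex 1, the edgeR test called 0 of the 15 at an adjusted p of 0.01, beside 0% of all genes. DESeq2 called 0 of the 15, beside 70 of 15048 genes in all. At an unadjusted p under 0.05, edgeR took 1 of the 15, MT-RNR1, beside 7.26% of all genes. MT-RNR1 was 1.66 times as high with duplex 2 (log2 0.73, SE 0.22, edgeR adjusted p = 0.467) and MT-RNR2 1.35 times (log2 0.43, SE 0.20, edgeR adjusted p = 0.707). Both comparisons use the same control libraries. In the controls MT-RNR1 ranged 2.43-fold and MT-RNR2 1.86-fold, whereas MT-CO3 ranged 1.12-fold. The coefficient of variation of MT-RNR1 among the controls was 35.04% where counting alone would give 1.103%, and that of MT-CO3 was 5.06%.

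Within a library, the rRNAs can be read against the mRNAs of the same genome. There were 0.622, 0.597 and 0.693 rRNA reads per mRNA read after NFE2L2 siRNA, 0.293 and 0.485 with control duplex 1, 0.466 and 0.577 with control duplex 2, and 0.510 in the mock library. All 3 NFE2L2 siRNA libraries lay above all 4 controls and the mock library, although NFE2L2 duplex 2 and the second transfection of control duplex 2 were close. The log2 difference was 0.52, and the exact permutation p of 0.0571 was the smallest that the design can give, or 0.359 after Benjamini-Hochberg adjustment over the 22 ratios and shares tested in this way. This ratio was added after the values had been seen. The share of all entries that aligned at more than 1 place was also higher in all 3 NFE2L2 siRNA libraries, at 18.2% to 19.1% after NFE2L2 siRNA, 16.9% to 17.7% in the controls and 17.0% in the mock library. In the controls this share was 17.5% and 17.2% with duplex 1 and 17.7% and 16.9% with duplex 2. Ratio and share both separated the NFE2L2 siRNA libraries from the controls. The part of the share in the ratio was not tested. Cytosolic and 5S rRNA genes, 526 in the annotation, together had 21 to 50 reads per library, and 498 of them had no read. Since reads that aligned at more than 1 place were not assigned to genes, this count does not measure how much cytosolic rRNA was left.

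The rRNAs themselves kept to a ratio near 6 in most libraries. MT-RNR2 had 6.17, 5.95 and 5.82 reads per MT-RNR1 read after NFE2L2 siRNA, 5.96 and 5.95 with control duplex 2 and 5.94 in the mock library, but 7.79 and 7.07 with control duplex 1. The libraries of control duplex 1 thus stood apart from the other 6. NFE2L2 siRNA against all controls gave a log2 difference of −0.15 (exact permutation test, p = 0.343), which was −0.077 without the first transfection of control duplex 1 and −0.31 against control duplex 1 alone.

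**Figure D3:**
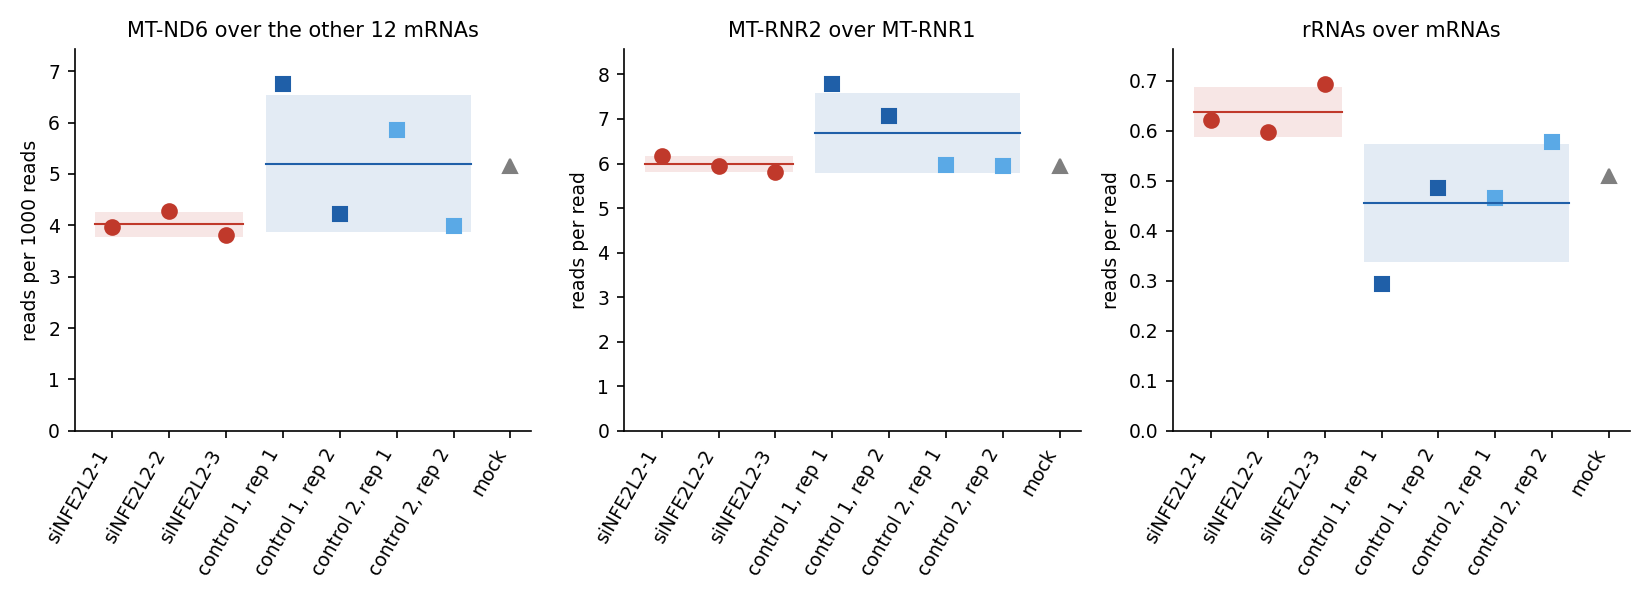
Ratios of reads within each of the 8 libraries for MT-ND6 per 1000 reads of the other 12 mRNAs (left), MT-RNR2 per MT-RNR1 read (middle) and rRNA per mRNA read (right), with the mean as a line and 1 SD as a band for NFE2L2 siRNA (n = 3) and control siRNA (n = 4). The first transfection of each control duplex is high on the left (6.75 and 5.85), control duplex 1 is high in the middle (7.79 and 7.07), and the NFE2L2 siRNA libraries are highest on the right (0.597 to 0.693).

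Mitochondrial tRNAs were nearly absent from the counts. The 22 genes had 25 reads in all over the 8 libraries, between 1 and 6 per library, and 16 of the 22 had no read at all. None reached 10 reads in a single library, the number set for a description of its own. The 6 with a read were MT-TF, MT-TV, MT-TL1, MT-TM, MT-TH and MT-TS2, named after their values were seen, and MT-TV had the most at 4 reads in the NFE2L2 duplex 1 library. All 6 lie on the plus strand, where 14 of the tRNA genes are, and 0 of the 8 on the minus strand had a read. A read counted only where all its bases fell inside the gene. Of the 22 tRNAs, 16 had every 50-base window within 2 mismatches of a nuclear copy, and the 7 whose windows were all identical to one had no read. A difference in the tRNA share between groups was not detectable at this depth (exact permutation test, p = 0.971), and the part of these features was not tested.

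Levels of different transcripts were compared per length, as CPM per kilobase of gene, and described without a test. A read that crossed the end of a gene was not counted, which lowers short genes such as MT-ATP8 (207 bases) more than long ones. No correction was made for this. In the controls MT-CO3 was highest at 1758 ± 89 (SD, n = 4), followed by MT-RNR2 at 922.3 ± 225.1, MT-CO2 at 882.4 ± 47.0 and MT-CO1 at 814.1 ± 76.7. MT-RNR2, MT-CO2 and MT-CO1 overlapped as neighbours in this order, whereas MT-CO3 was above MT-RNR2 in all 8 libraries. MT-ND3 came next at 316.6 ± 27.8 and overlapped MT-RNR1 at 233.1 ± 81.7. MT-ATP6 stood alone at 81.8 ± 9.5. The other mRNAs followed at 51.1 (MT-ND4L), 49.4 (MT-ND4), 41.9 (MT-CYB), 38.4 (MT-ATP8), 36.3 (MT-ND6), 34.6 (MT-ND1), 28.1 (MT-ND2) and 20.8 (MT-ND5), and each overlapped the next in its control range.

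The gap between complex IV mRNAs and the rest held in each library. The lowest of MT-CO1, MT-CO2 and MT-CO3 was between 703.1 and 888.3 CPM per kilobase, and the highest other mRNA, MT-ND3 in every library, was between 289.9 and 391.5. MT-CO3 was 26.8 to 41.9 times the level of MT-ND4, and MT-CO1 was 24.1 to 35.2 times that of MT-ND2.

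**Figure D4:**
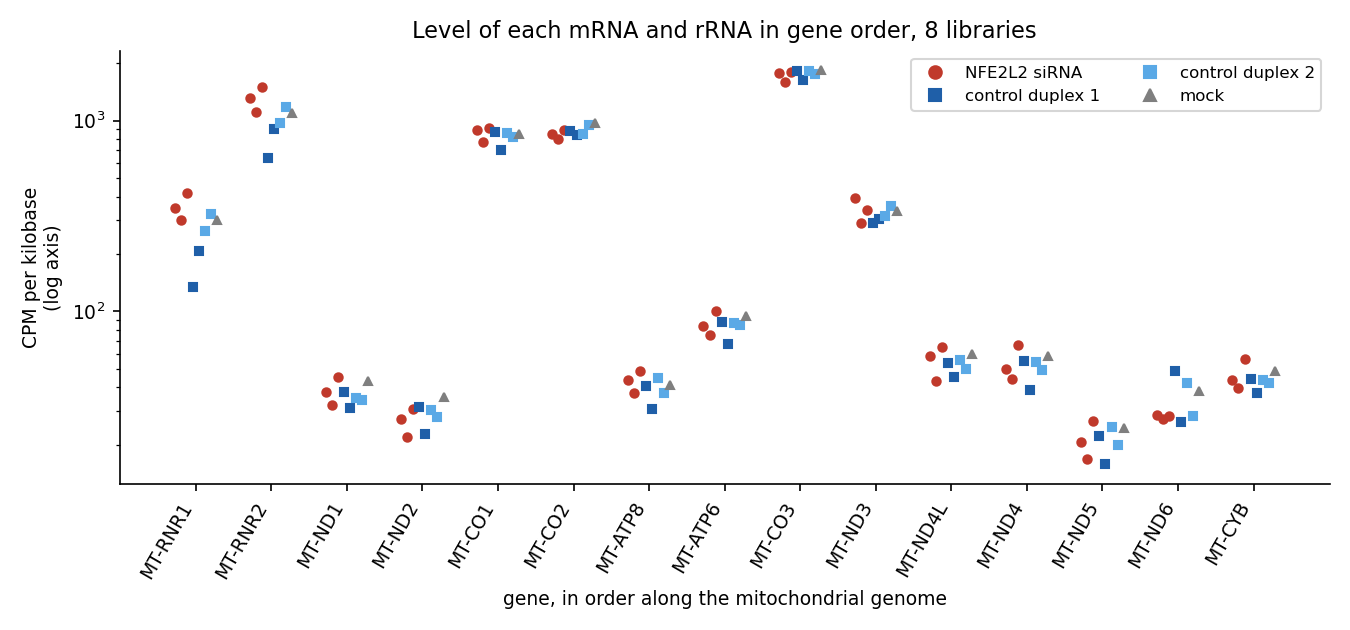
Level of each mRNA and rRNA in CPM per kilobase (log axis), in the order of the genes along the mitochondrial genome, with 1 point for each of 8 libraries. MT-CO1, MT-CO2, MT-CO3 and MT-RNR2 lie highest, MT-ND5 lies lowest, and the spread between libraries is widest for the rRNAs and MT-ND6.

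Transcripts of like similarity to the nuclear genome stood at different levels. For each gene, the share of its 50-base windows within 2 mismatches of some nuclear sequence was taken. It was 99.3% for MT-CO1 and 96.4% for MT-ND2, both inside the chromosome 1 block, and their control levels were 814.1 and 28.1 CPM per kilobase. MT-ATP6, in the same block, had 98.4% of its windows near-identical and a level of 81.8. MT-ND3, with 6.40% of its windows near-identical, was at 316.6, and MT-CYB, with 18.4%, was at 41.9. Windows identical to a nuclear sequence made up 50.6% of MT-CO1, 43.6% of MT-ND2 and 48.3% of MT-ATP6. They made up 0% of MT-ND3 and 1.65% of MT-CYB. The part of nuclear similarity in the measured levels was not tested.

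**Figure D5:**
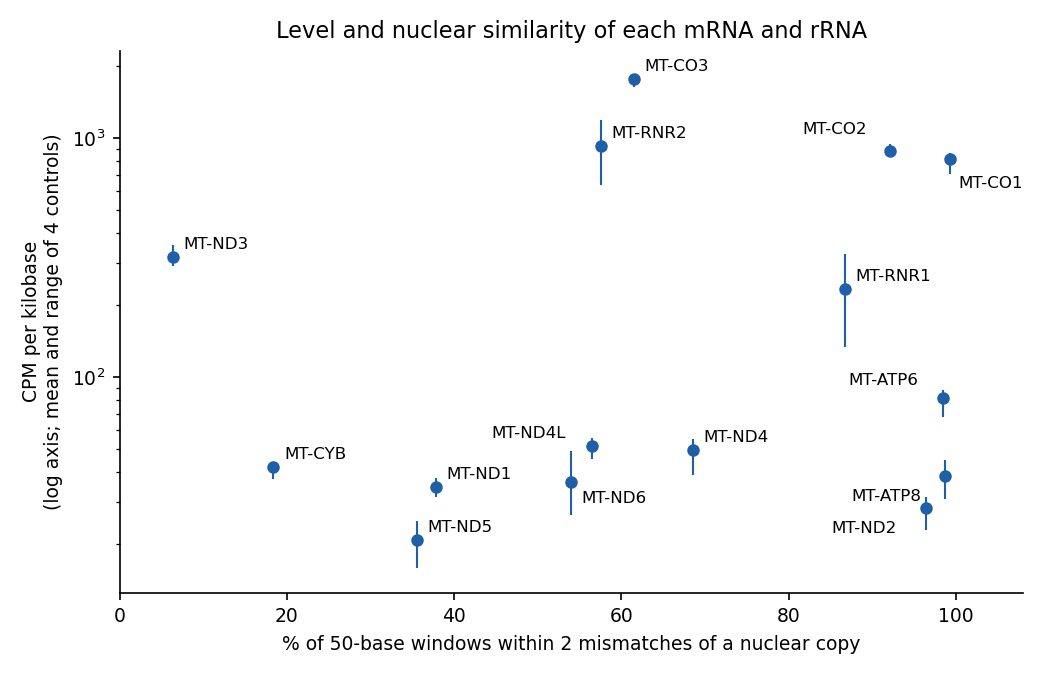
Mean level in the 4 control libraries (log axis, with the range as bars) against the percent of 50-base windows within 2 mismatches of a nuclear sequence, for the 13 mRNAs and 2 rRNAs. Genes of high similarity range from MT-ND2 at 28.1 to MT-CO2 at 882.4, and MT-ND3 stands at 316.6 with a similarity of 6.40%.

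Of 394 nuclear copies named in the annotation, 331 had no read in any library, and reads were concentrated in MTCO1P12 and MTCO3P12, copies of MT-CO1 and MT-CO3 in the chromosome 1 block (chr1:566454-567996 and chr1:569756-570302). MTCO1P12 had 2440 to 3766 reads and MTCO3P12 1166 to 1669, whereas MTCO2P12 between them (chr1:568137-568818) had 1 to 8. On chromosome 5, MTND6P4 had 17 to 31 reads and MTND4P12 2 to 7. Neither of the first pair passed the test, with log2 fold changes of 0.10 (SE 0.11, edgeR adjusted p = 0.623) for MTCO1P12 and 0.13 (SE 0.10, edgeR adjusted p = 0.480) for MTCO3P12.

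MTCO1P12 followed MT-CO1 closely from library to library. It had 6.00, 6.18 and 6.42 reads per 100 MT-CO1 reads after NFE2L2 siRNA, 5.94, 5.95, 6.02 and 5.99 in the controls and 6.06 in the mock library. MTCO3P12 had 2.84, 2.75 and 2.85 reads per 100 MT-CO3 reads after NFE2L2 siRNA, 2.50, 2.47, 2.52 and 2.38 in the controls and 2.50 in the mock library. For MTCO3P12 the groups did not overlap (log2 difference 0.19, exact permutation test, p = 0.0571, the smallest possible, adjusted p = 0.359), and this ratio too was added after the values had been seen. Reads of the nuclear copy and of the mitochondrial gene cannot be told apart with certainty at these levels of identity.

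In the nucleus-encoded lists, edgeR called 0 genes at an adjusted p of 0.01, beside the 2.76% of all genes, and DESeq2 called 7 of the 235 tested, or 2.98%, beside its 7.38% of all genes. The 7 were GABPB1, PPARGC1A and MYC among biogenesis regulators, the ATP synthase subunit ATP5MC1, and the mitoribosomal MRPS35, MRPL18 and MRPL24, named after their values were seen. Among 22 genes of mitochondrial DNA transcription and replication, 9 had an unadjusted p under 0.05 (40.9%, beside 25% of all genes), of which 8 were lower. The median log2 fold change was −0.22, and 27.3% of the 22 were above 0, beside 51.3% of all genes tested. POLRMT, the RNA polymerase, stood at 66.5 ± 5.9 CPM (SD, n = 3) and 76.5 ± 5.6 CPM (SD, n = 4), and TEFM, its elongation factor, at 15.03 ± 1.49 and 18.1 ± 1.4 CPM, with edgeR adjusted p of 0.220 and 0.132. TFAM, which packages mitochondrial DNA and starts its transcription, differed between the NFE2L2 duplexes, at 188.4, 74.5 and 140.8 CPM, around controls of 123.9 to 138.9 CPM. The NFE2L2 duplex 2 library was lowest of the 3 in TFAM and in mRNA and rRNA shares, and it kept the most NFE2L2, at 52.9 CPM. Duplex 1 was highest in TFAM and duplex 3 in both shares. Whether TFAM or the strength of the knockdown bears on these shares was not tested.

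Among 40 tested genes of mitochondrial RNA processing and stability, 8 had an unadjusted p under 0.05, or 20% beside the 25% of all genes. Those 8 were lower. The median log2 fold change was −0.15, and 17.5% of the 40 were above 0, beside 51.3% of all genes tested. LRPPRC and SLIRP form the complex that stabilizes mitochondrial mRNAs. LRPPRC stood at 637.2 ± 33.9 and 609.3 ± 10.8 CPM (edgeR adjusted p = 0.852) and SLIRP at 59.8 ± 8.4 and 74.5 ± 7.4 CPM (edgeR adjusted p = 0.119), after NFE2L2 siRNA and in the controls. Of 75 mitoribosomal protein genes tested, 25 had an unadjusted p under 0.05 (33.3%, beside 25% of all genes in either direction), and all 25 were lower. The median was −0.18, and 12% of the 75 were above 0, beside 51.3% of all genes tested. How many of all genes at this unadjusted p were lower is not given here. The 79 nuclear subunits of complexes I to V had a median of −0.03, and 2 of them had an unadjusted p under 0.05, beside 25% of all genes.

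PPARGC1A, the coactivator PGC-1α that drives mitochondrial biogenesis, had 58.9, 57.1 and 76.8 CPM after NFE2L2 siRNA, 44.9, 38.1, 41.7 and 39.6 CPM in the controls and 44.8 CPM in the mock library. Its groups did not overlap, and the log2 fold change of 0.61 (SE 0.12) had an adjusted p of 0.0163 in edgeR and 0.000635 in DESeq2, so that only DESeq2 called it at 0.01. NRF1, a nuclear respiratory factor distinct from NRF2, stood at 14.8 ± 2.3 CPM (SD, n = 3) and 15.8 ± 1.0 CPM (SD, n = 4), with an edgeR adjusted p of 0.572.

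The mock library, which has no replicate and no test, lay within the control range for 7 of the 15 mitochondrial transcripts and above every control for 8. The latter were MT-ND1, MT-ND2, MT-ND4, MT-ND4L, MT-CYB, MT-CO2, MT-CO3 and MT-ATP6. MT-ND1, for example, was at 41.2 CPM beside a control mean of 33.1 ± 2.5 CPM (SD, n = 4). The summed mRNA share of the mock library, 0.390%, was above every control (at most 0.382%), so these 8 are not separate observations. The matching share over all genes is not given here, so the count of 8 cannot be read as particular to these transcripts.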

How the data were processed

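Stranded total RNA of 8 A549 transfections was sequenced. The authors deposited raw read counts per gene, made with HISAT 0.1.6 (genome hg19) and HTSeq 0.6.0, per the labels and the study's methods with GENCODE gene models, reverse strand and strict intersection. The mitochondrial sequence in their index is not given in the sources used here. Mitochondrial sequences distributed with hg19 differ, which can change how reads were divided among genes and nuclear copies, and thus levels, tRNA counts and copy ratios; this was not tested. Gene symbols and positions came from GENCODE 44 on GRCh37 and matched 55538 of 60291 genes, MT- genes included. Members and gene lists were chosen with earlier results of these data known.

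Here, counts were fitted across all genes with edgeR 4.0.16 (R 4.3.3, TMM, quasi-likelihood, Benjamini-Hochberg, threshold 0.01), keeping genes with at least 10 reads in 1 of 7 libraries; the mock library was left out. Intervals of fold changes used the fit's t quantiles. Shares and ratios were compared by exact two-sided permutation of the 7 libraries. DESeq2 1.42.0, limma 3.58.1, other scalings and filters, single control duplexes and leaving out each library were alternatives. The fit was tested on simulated data. Libraries of a group differed beyond sampling noise (chi-square over degrees of freedom 11.6 to 71.2), and each was counted as 1 sample. Control pairs of the same duplex differed least, at 11.6 and 13.0, and pairs across duplexes stood at 22.2 to 43.4. The tests took the 4 controls as independent and made no allowance for their shared duplexes, so their p-values can be too small. The mitochondrial genome was aligned to the nuclear genome with blastn. Genes named were all mRNAs and rRNAs, tRNAs with at least 10 reads in a library, in other lists the genes past the threshold and POLRMT, TFAM, TEFM, LRPPRC, SLIRP, PPARGC1A and NRF1, the 4 nuclear copies with the most reads, and NFE2L2 and NQO1. One marker gene is not reported here.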

Additional observations from a re-analysis of the deposited data

Results flagged for a closer look

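MT-ATP6 stood at 46.1 CPM in the second transfection with control duplex 1, lower than the other 3 controls by a gap that was 0.834 of the group's whole range, just above Dixon's critical value for 4 samples. Of 25 values examined in this way in the control group, 1 was picked out, where chance gives about 1.25. The mean share of entries that aligned at more than 1 place, a class outside the gene counts, was 18.7% after NFE2L2 siRNA, above the control libraries, which lay between 16.9% and 17.7%.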

How the results depend on the processing

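No mitochondrial transcript passed an adjusted p of 0.01 in either comparison under the alternatives run, while the number of all genes called for NFE2L2 siRNA moved from 491 to 1314 with DESeq2, 1019 with a filter of 1 read, 772 with the mock library added, 120 and 59 with control duplex 1 or 2 alone, 78 after summing the pair of libraries of each control duplex, 1456 at a threshold of 0.05, and 163 to 915 when 1 library was left out. The cause was not tested. Of the 235 genes tested in the other lists, 7 were called with DESeq2 (2.98%, beside 7.38% of all genes), against 0. At a threshold of 0.05, 9 of the 235 were called, beside 1456 of all 17811 genes. Of 15 log2 fold changes, 7 kept their direction under all 21 alternatives and 8 turned at least once. MT-ND5 turned to −0.077 with control duplex 2 alone and −0.032 with the mock library added. Leaving out 1 library gave −0.167 to 0.147 for MT-ND5, −0.0089 to 0.220 for MT-ND1, −0.015 to 0.107 for MT-CO1, −0.064 to 0.128 for MT-ATP6, −0.045 to 0.173 for MT-ND3, −0.038 to 0.228 for MT-ND4L, −0.093 to 0.198 for MT-ND4 and −0.027 to 0.208 for MT-CYB. MT-RNR1 ranged from 0.27 to 0.99 over all alternatives (adjusted p 0.0478 to 0.519), MT-RNR2 from 0.27 to 0.69 (adjusted p 0.0479 to 0.503) and MT-ND6 from −0.53 to −0.21.

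The difference in mRNA share turned to −0.00565 percentage points with all entries as denominator, −0.00537 with control duplex 2 alone and −0.000462 with the mock library added, and ran from −0.00746 to 0.0211 with 1 library left out. That in tRNA share was 0.242 on the log2 scale, 5.36e-06 points with control duplex 1 alone, and −3.19e-06 to 2.47e-06 with 1 library left out. The log2 ratio of MT-RNR2 to MT-RNR1 turned to 0.00583 with control duplex 2 alone. With 1 library left out it ran from −0.207 to −0.077, and the log2 ratio of MT-ND6 to the other mRNAs from −0.455 to −0.201. For the rRNA to mRNA ratio, alternatives chosen after seeing the data gave 0.75 with control duplex 1, 0.29 with control duplex 2 and 0.33 without the first library of control duplex 1. No paired analysis was possible because the NFE2L2 siRNA numbers name duplexes and the control numbers name repeats of a control duplex, so equal numbers share nothing.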
